A study of Mus musculus with 9 samples.

Results

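The cytosolic ribosomal protein genes are the nuclear genes whose products, together with ribosomal RNA, form the large and the small subunit of the cytoplasmic ribosome. Members were taken by name from a count table of 56691 genes: protein-coding symbols of the form Rpl or Rps followed by a number, with the stalk genes Rplp0, Rplp1 and Rplp2 and with Rpsa. The pattern found 84 symbols, of which 3 (Rps4l, Rpl6l and Rpl32l) are not annotated as protein coding and were left out. The remaining 81 members comprise 50 genes of the large and 31 of the small subunit, and all 81 had enough counts to be tested. The pattern does not catch 4 structural genes (Rps3a1, Fau and Rack1 among them), which were followed as a separate list.

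The RNA came from mouse testes on postnatal day 7 and was enriched for polyadenylated transcripts with oligo dT beads. The 9 libraries form 3 groups of 3: testes labelled as lacking both Gm1142 and Gm4779 (Gm1142-/- Gm4779-/-, the double knockout), testes labelled Gm1142 knockout (Gm1142-/-), and wild type (WT). The labels give no strain, no parental line and no account of how the alleles were made. Nothing in them says that the 3 libraries of a group came from separate animals, so p-values reflect only how far these samples scatter, and that scatter may be technical. Gm1142 had 0 counts in each double knockout library, 65, 46 and 50 counts in the libraries labelled Gm1142 knockout and 56, 50 and 41 counts in WT. The second group is therefore known by its label alone, and its samples are called the Gm1142-labelled libraries from here on.

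Each ribosome carries a single copy of most ribosomal proteins, so cells make them in matched amounts, mainly by adjusting how strongly their mRNAs are translated. These mRNAs begin with a run of pyrimidines, the terminal oligopyrimidine tract, which the growth regulator mTOR acts on through the RNA-binding protein LARP1. In the testis the need for ribosomes is high in dividing spermatogonia, and several X-linked members have autosomal copies that are used when the X chromosome is silenced at meiosis.

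Because such a tract begins at the transcription start, the start-site stretch is shown for the members on which the comparisons turn. These are the 6 with the smallest p among members that were both higher in the Gm1142-labelled libraries than in WT and listed in the promoter table, and the 2 that were higher in the double knockout than in the Gm1142-labelled libraries. Each line gives 30 bases before and 20 bases from the annotated transcription start, 5′ to 3′ on the gene's strand, from RefSeq on GRCm38.p6. Capitals mark unbroken runs of at least 8 C or T that reach within 10 bases of the start.
Rps18: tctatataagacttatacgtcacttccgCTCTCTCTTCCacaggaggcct
Rps23: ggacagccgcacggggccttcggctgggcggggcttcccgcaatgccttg
Rps12: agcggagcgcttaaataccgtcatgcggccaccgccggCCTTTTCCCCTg
Rps16: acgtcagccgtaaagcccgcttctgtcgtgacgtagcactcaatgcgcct
Rpl38: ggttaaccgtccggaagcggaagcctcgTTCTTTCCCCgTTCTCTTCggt
Rpl34: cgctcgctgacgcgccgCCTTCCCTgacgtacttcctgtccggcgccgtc
Rpl6: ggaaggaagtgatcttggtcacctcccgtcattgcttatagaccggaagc
Rps10: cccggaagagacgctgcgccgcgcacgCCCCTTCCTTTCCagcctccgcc
The stretches lie at chr17:33955646-33955695 (Rps18, minus strand), chr13:90923092-90923141 (Rps23, plus), chr10:23787190-23787239 (Rps12, minus), chr7:28350659-28350708 (Rps16, plus), chr11:114668550-114668599 (Rpl38, plus), chr3:130730379-130730428 (Rpl34, minus), chr5:121204471-121204520 (Rpl6, plus) and chr17:27635225-27635274 (Rps10, minus). Rpl34 had a second listed window, which is not shown. Such a run stands in 5 of these 8 stretches, and Rps23, Rps16 and Rpl6 have none at this annotated start.

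Promoter windows (250 bases before to 50 after the start) were listed for 61 of the 81 members. A pyrimidine run of that kind stood in 28 of the 61 (45.9%), against 15.8% of the 27025 genes with a window. Among members that were higher in the Gm1142-labelled libraries than in WT it stood in 7 of 12 with a window (58.3%), and among the other members in 21 of 49 (42.9%). The letters CTTTCC can lie within such a run but were searched on either strand over the whole window. They stood in 3 of 12 (25%) against 30 of 49 (61.2%). The letters CCGGAAG, the core bound by ETS-family factors, stood on either strand in 25 of 61 members (41.0%) and in 9.93% of all genes. CTTTCC was found on either strand in 33 of 61 (54.1%) against 29.3%, and AAGATGG, the core bound by YY1, in 9 of 61 (14.8%) against 7.28%. TATAAA was less common, in 6 of 61 members (9.84%) against 15.7% of all genes. In the same split of members, CCGGAAG stood in 5 of 12 (41.7%) against 20 of 49 (40.8%). AAGATGG stood in 3 of 12 (25%) against 6 of 49 (12.2%), and TATAAA in 1 of 12 (8.33%) against 5 of 49 (10.2%). These are matches of letters in a window and not measured binding.

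Total counts per library were 4370124 to 8359594 in the double knockout, 4597447 to 5243756 in the Gm1142-labelled libraries and 4514237 to 5091624 in WT. Mitochondrially encoded genes took 27.1% to 32.9%, 32.5% to 38.9% and 29.4% to 32.7% of them, in the same order of groups. Markers of Sertoli, Leydig, germ, myoid, macrophage, endothelial, red and duct cells were all detected, with no marker at 0 in every library. The summed level of the 9 germ-cell markers was 695 to 855 CPM (a gene's counts scaled to a common library size) in the double knockout, 378 to 474 CPM in the Gm1142-labelled libraries and 426 to 513 CPM in WT. The 6 red-cell markers summed to 62.4 to 83.4 CPM, 95.7 to 136 CPM and 69.1 to 84.2 CPM, in that order, and the 6 Leydig markers to 249.5 to 445 CPM, 174 to 267 CPM and 279 to 502 CPM. The 5 duct and epididymis markers summed to 31.02 to 45.9 CPM in the double knockout, below all libraries of the other groups, 57.5 to 64.1 CPM in the Gm1142-labelled libraries and 62.9 to 83.3 CPM in WT. The part of these cell-type levels in the results was not tested, and in bulk testis RNA fewer cells of a type and less RNA per cell cannot be told apart.

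Members held a similar share of each library. Of the counts outside mitochondrially encoded genes, they took 1.47%, 1.37% and 1.38% in the double knockout, 1.43%, 1.42% and 1.38% in the Gm1142-labelled libraries and 1.31%, 1.38% and 1.32% in WT. In this share the Gm1142-labelled libraries were all above WT, the nearest pair by less than the rounding shows. Replicates 2 and 3 of the double knockout lay just below the highest WT library. Of all counts, members took 1.038%, 1.002% and 0.923% in the double knockout and 0.962%, 0.867% and 0.895% in the Gm1142-labelled libraries. The WT values were 0.926%, 0.927% and 0.923%. There, replicates 2 and 3 of the Gm1142-labelled libraries were below all WT libraries and replicate 1 was above them. The order of these groups thus depended on whether mitochondrially encoded genes were counted. The summed counts of the large subunit exceeded those of the small subunit by a ratio of 1.60, 1.60 and 1.57 in the double knockout, 1.67, 1.72 and 1.65 in the Gm1142-labelled libraries and 1.60, 1.62 and 1.63 in WT. All 3 Gm1142-labelled libraries were above the other 6 in this ratio.

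**Figure D1:**
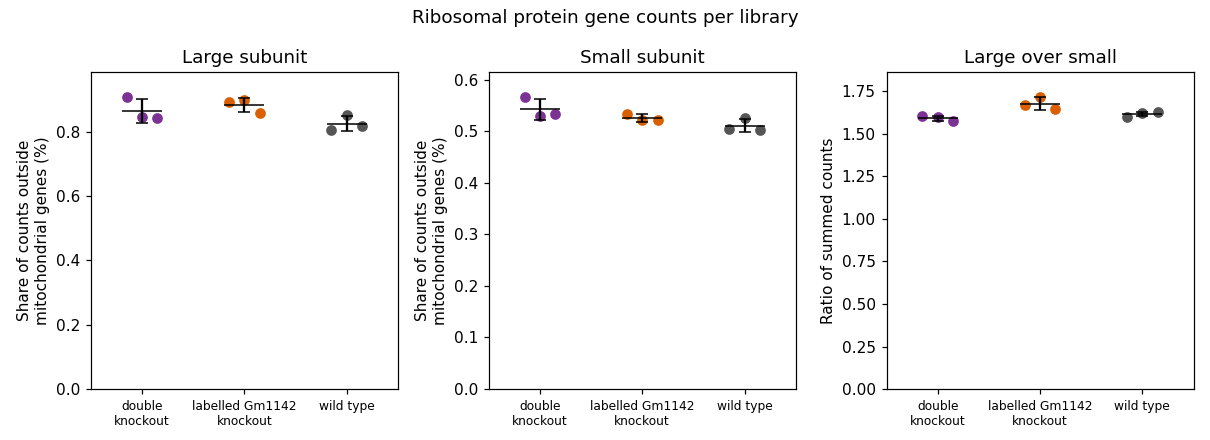
Share of the counts outside mitochondrially encoded genes held by the 50 large and the 31 small subunit genes (%), and the ratio of their summed counts, for the double knockout, the libraries labelled Gm1142 knockout and wild type. Points are libraries, and bars give mean and SD of 3; the ratio is highest in the libraries labelled Gm1142 knockout, at 1.65 to 1.72.

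Levels of different members were compared as CPM per kilobase of an annotated transcript. The median member of the large subunit stood at 106 CPM per kb in the double knockout, 133 in the Gm1142-labelled libraries and 99.0 in WT, and the median member of the small subunit at 155, 147 and 138 in that order. In the large subunit the highest in each group was Rpl10, a late-joining protein next to the peptidyl-transferase centre, with 502 ± 55.3 CPM per kb in the double knockout, 656 ± 54.9 CPM per kb in the Gm1142-labelled libraries and 560.0 ± 18.3 CPM per kb in WT (SD, n = 3 each, as for the levels that follow). Rpl41, which has the shortest coding sequence of all members (75 bases), had 464 ± 50.1 CPM per kb in the double knockout, 607 ± 174 CPM per kb in the Gm1142-labelled libraries and 480.4 ± 11.1 CPM per kb in WT. Rpl10a, a protein of the L1 stalk, had 319.8 ± 57.9 CPM per kb in the double knockout, 348 ± 71.0 CPM per kb in the Gm1142-labelled libraries and 313 ± 11.1 CPM per kb in WT. Among these 3 the spread was widest for Rpl41 in the Gm1142-labelled libraries. The lowest were the paralogs Rpl3l, Rpl39l and Rpl10l, at 0.663, 3.64 and 6.46 CPM per kb in WT. In the small subunit Rps2 had the highest WT level, with 368 ± 57.8 CPM per kb in the double knockout, 322 ± 28.8 CPM per kb in the Gm1142-labelled libraries and 335 ± 8.27 CPM per kb in WT. Rps24, next in WT, had 313 ± 48.4 CPM per kb in the double knockout, 271 ± 48.4 CPM per kb in the Gm1142-labelled libraries and 309.7 ± 13.7 CPM per kb in WT. Rps7 had 310.0 ± 41.9 CPM per kb in the double knockout, 277 ± 44.8 CPM per kb in the Gm1142-labelled libraries and 280.5 ± 40.0 CPM per kb in WT. In the Gm1142-labelled libraries Rps18 was the highest small subunit gene, at 391 CPM per kb. For Rps2, Rps24 and Rps7 the group means differed by less than the sum of their SDs. The lowest were Rps20, Rps27l and Rps16, at 6.61, 11.7 and 21.5 CPM per kb in WT. The annotated transcript of Rps20 has 3706 bases for a coding sequence of 357, which lowers its value per kb. Rps24 (1613 bases for 399) and Rps16 (1109 for 438) are affected in the same way, so these ranks depend on the transcript chosen. Without division by length, Rps24 was above Rps2 in WT, at 499.5 against 334 CPM.

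**Figure D2:**
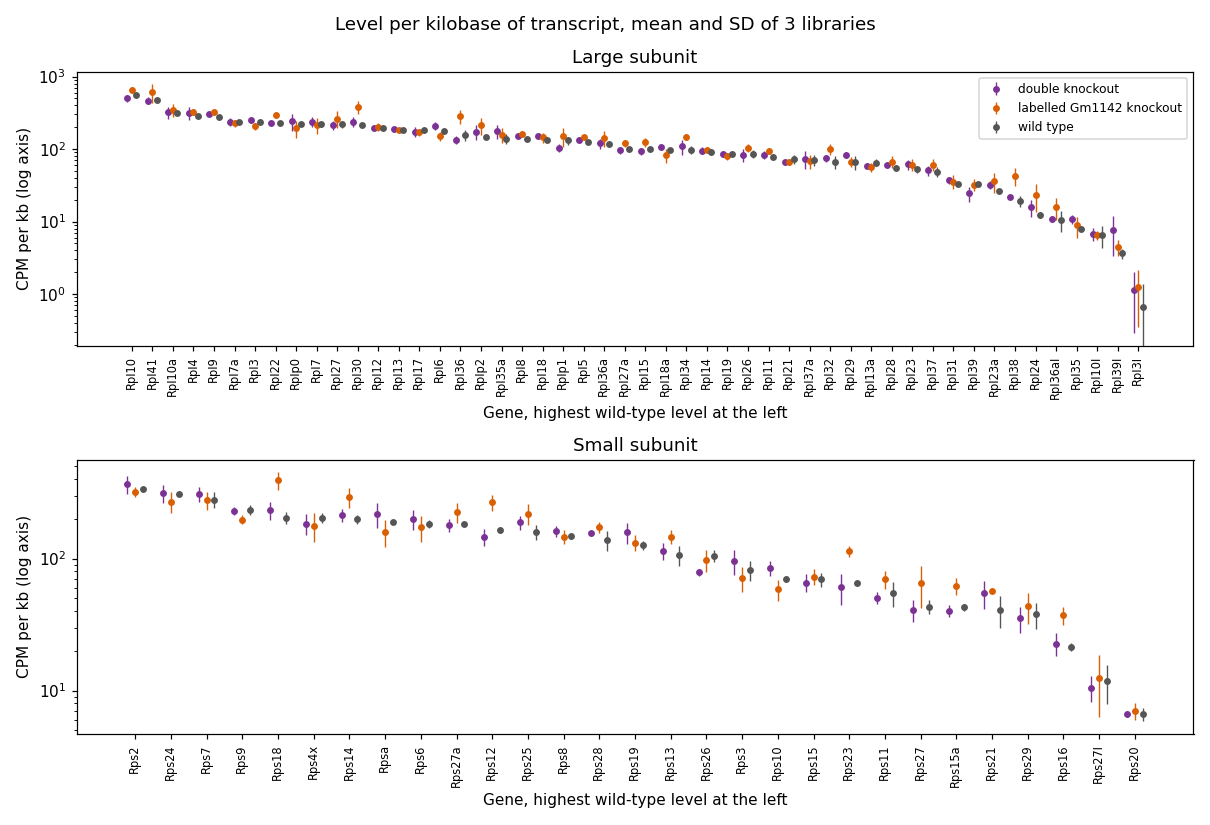
Level per kilobase of transcript (CPM per kb, log axis) of large and small subunit genes, ordered by the wild-type mean, as mean and SD of 3 libraries in the double knockout, the libraries labelled Gm1142 knockout and wild type. Wild-type levels run from 0.663 CPM per kb (Rpl3l) to 560.0 CPM per kb (Rpl10).

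In the Gm1142-labelled libraries, 17 of the 81 members were higher than in WT and none was lower (edgeR quasi-likelihood test, adjusted p under 0.05 over 17251 genes). Of all genes tested, 10.2% were higher and 8.38% lower, 18.5% in all. DESeq2 called 17 and limma-voom 15 members higher and none lower, and 24 members had an unadjusted p under 0.05 in edgeR (30.8% of all genes). The large subunit gave 8 of 50 and the small subunit 9 of 31. The median log2 fold change was 0.20 over the members, 0.21 in the large and 0.08 in the small subunit, against -0.01 over all genes. Without replicate 2 of the Gm1142-labelled libraries the median over the members was 0.11. The small subunit's median was 0.18 with pseudogene counts added (large subunit 0.20), 0.14 with libraries thinned to 1 depth, 0.23 without replicate 1 and 0.26 without replicate 3 of the Gm1142-labelled libraries, and 0.24 without replicate 2 and 0.14 without replicate 3 of WT, so the subunits' medians were not stably apart. The large subunit's median was 0.12 without replicate 2 of the Gm1142-labelled libraries. In 30 members every Gm1142-labelled library was above every WT library (18.7% of all genes), and in 1, Rps9, every one was below (17.2% of all genes). Leaving out 1 library gave 16 (Rpl41 among them), 9 or 10 higher members without replicate 1, 2 or 3 of the Gm1142-labelled libraries, and 7, 11 or 11 without replicate 1, 2 or 3 of WT. Rps18, Rpl30, Rpl36, Rps23, Rps12, Rps16 and Rps14 passed whichever library was left out.

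The small subunit gene with the smallest p was Rps18, whose product sits in the head of the subunit and which is often used as a reference gene in quantitative PCR. It had 131, 108 and 149.9 CPM in the double knockout, 188, 254 and 216 CPM in the Gm1142-labelled libraries and 101, 119 and 122 CPM in WT. All 3 Gm1142-labelled libraries were above the other 6, while the double knockout and WT overlapped (adjusted p = 1.13e-04 by edgeR, log2 fold change 0.94, SE 0.14 for the Gm1142-labelled libraries against WT). Rps23, a protein of the decoding centre, had 49.4, 46.7 and 74.3 CPM in the double knockout, 98.3, 117 and 103 CPM in the Gm1142-labelled libraries and 59.0, 61.3 and 62.9 CPM in WT, again with the Gm1142-labelled libraries above the other 6 (adjusted p = 0.0014 by edgeR, log2 fold change 0.80, SE 0.16). Rps12, a protein of the beak, had 70.8, 61.7 and 82.7 CPM in the double knockout, 112, 150.3 and 133 CPM in the Gm1142-labelled libraries and 81.9, 85.3 and 76.9 CPM in WT. Its Gm1142-labelled libraries did not overlap with either other group (adjusted p = 0.00175 by edgeR, log2 fold change 0.69, SE 0.14). Rps16, whose tail reaches the P-site tRNA, was a low member with 20.7, 24.4 and 30.6 CPM in the double knockout, 34.6, 47.8 and 41.1 CPM in the Gm1142-labelled libraries and 22.01, 25.03 and 24.5 CPM in WT (adjusted p = 0.00616 by edgeR, log2 fold change 0.78, SE 0.19). Rps14, a protein of the platform whose human gene lies in the interval lost in 5q- syndrome, had 132, 111 and 139.7 CPM in the double knockout, 151, 209.9 and 165 CPM in the Gm1142-labelled libraries and 116, 111 and 129 CPM in WT (adjusted p = 0.00724 by edgeR, log2 fold change 0.56, SE 0.14). In both genes the lowest Gm1142-labelled library was above every other library. Rps25, Rps15a and Rps13 also passed, at log2 fold changes of 0.46, 0.53 and 0.47, and each lost the call when at least 1 library was left out.

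Among large subunit genes Rpl30, whose yeast counterpart represses splicing of its own transcript, had 139, 112 and 153 CPM in the double knockout, 189, 264 and 197 CPM in the Gm1142-labelled libraries and 118, 122 and 123.4 CPM in WT. The Gm1142-labelled libraries lay above the other 6 (adjusted p = 3.60e-04 by edgeR, log2 fold change 0.83, SE 0.14). Rpl36 had 54.0, 43.5 and 55.3 CPM in the double knockout, 91.3, 135 and 100.1 CPM in the Gm1142-labelled libraries and 50.9, 57.8 and 71.7 CPM in WT and showed the same separation (adjusted p = 0.00112 by edgeR, log2 fold change 0.85, SE 0.17). Rpl38, whose loss in the mouse shortens the tail and alters vertebral patterning, had the largest fold change of the called members. Its level was low, at 7.27, 7.22 and 8.38 CPM in the double knockout, 9.91, 16.9 and 17.3 CPM in the Gm1142-labelled libraries and 5.36, 6.70 and 7.75 CPM in WT, and the Gm1142-labelled libraries were above all others (adjusted p = 0.0095 by edgeR, log2 fold change 1.15, SE 0.30). Without replicate 3 of the Gm1142-labelled libraries or replicate 1 of WT its call was lost, with adjusted p values of up to 0.0598 in edgeR's test. Rpl34, Rpl32, Rpl22, Rpl24 and Rplp2 also passed, at log2 fold changes of 0.60, 0.60, 0.36, 0.91 and 0.51. Each of these 5 lost the call without 1 library or another.

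**Figure D3:**
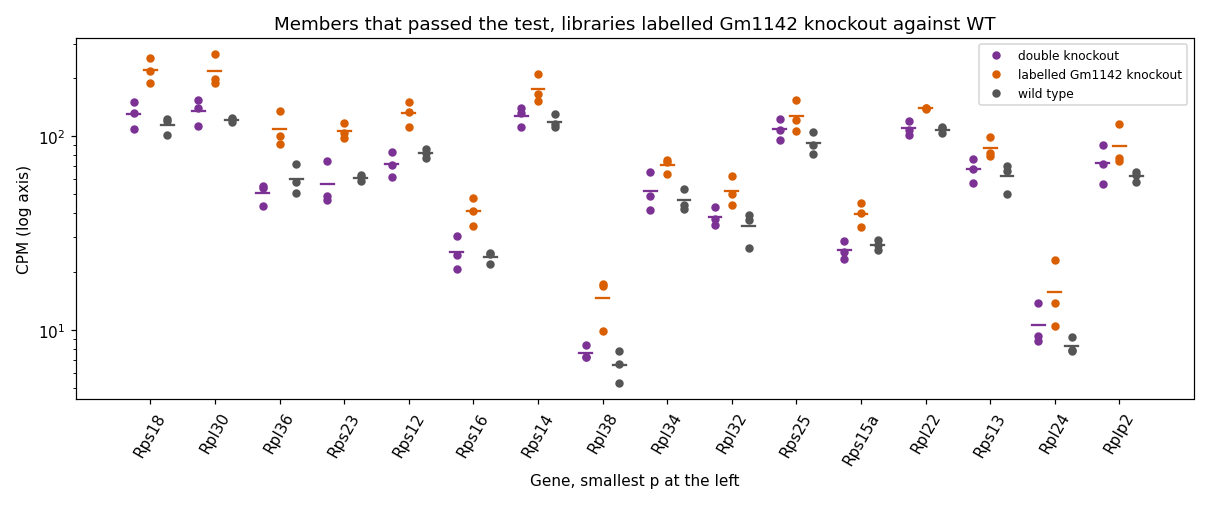
CPM (log axis) in each library of members that passed the test between the libraries labelled Gm1142 knockout and WT, ordered by p, with the double knockout, the libraries labelled Gm1142 knockout and wild type from left to right within each gene. Bars are means of 3; in each gene the lowest library labelled Gm1142 knockout lies above the highest wild-type library.

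The 64 members that did not pass had log2 fold changes from -0.26 (Rps10) to 0.82 (Rpl3l), of which 40 were positive. The stalk recruits elongation factors to the ribosome, and its anchor Rplp0 had 333, 414 and 236 CPM in the double knockout, 326, 193 and 267 CPM in the Gm1142-labelled libraries and 312, 316 and 277 CPM in WT (adjusted p = 0.480 by edgeR, log2 fold change -0.20, SE 0.18). Its partner Rplp1 had 55.3, 43.7 and 57.1 CPM in the double knockout, 52.4, 95.6 and 77.98 CPM in the Gm1142-labelled libraries and 56.3, 72.3 and 67.8 CPM in WT (adjusted p = 0.503 by edgeR, log2 fold change 0.20, SE 0.18). Rplp2, which pairs with Rplp1, had 71.9, 56.6 and 89.5 CPM in the double knockout, 77.1, 115 and 74.8 CPM in the Gm1142-labelled libraries and 58.0, 65.2 and 63.1 CPM in WT (adjusted p = 0.0474 by edgeR, log2 fold change 0.51, SE 0.18). Only Rplp2 of these 3 passed, and its call was lost without replicate 2 of the Gm1142-labelled libraries or without any 1 WT library. Rpsa, the small subunit protein also known as the laminin receptor, had 371, 405 and 264 CPM in the double knockout, 309.8, 192 and 265 CPM in the Gm1142-labelled libraries and 310.1, 296 and 309 CPM in WT (adjusted p = 0.295 by edgeR, log2 fold change -0.25, SE 0.16). In Rplp0 and Rpsa, replicate 2 of the Gm1142-labelled libraries was the lowest of all 9 libraries.

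That library differed from its group by coding length. Members with a coding sequence below the median of 453 bases numbered 39, and 13 of them were higher in the Gm1142-labelled libraries than in WT, with a median log2 fold change of 0.29. Of the 42 at or above the median 4 were higher, with a median of 0.02, and none of the 23 members with at least 600 coding bases passed. With 1 library removed the shorter members gave 5 (without replicate 1 of WT) to 12 higher, and the longer ones 2 to 4. Across the 81 members the Spearman correlation of the fold change with coding length was -0.48 (-0.48 in the large, -0.49 in the small subunit), against 0.01 over 13758 protein-coding genes. All points come from the same libraries, so no p is given. Up to 300 coding bases 1 of 11 members was higher (9.09%, against 12.7% of other protein-coding genes of that length), between 300 and 450 bases 12 of 28 (42.9% against 10.6%) and between 450 and 600 bases 4 of 19 (21.1% against 10.9%). The shortest members were thus not those called most often, although their median log2 fold change was 0.33. The correlation of the fold change was -0.51 with transcript length and -0.45 with the WT level in CPM. All 17 called members had 210 to 471 coding bases.

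**Figure D4:**
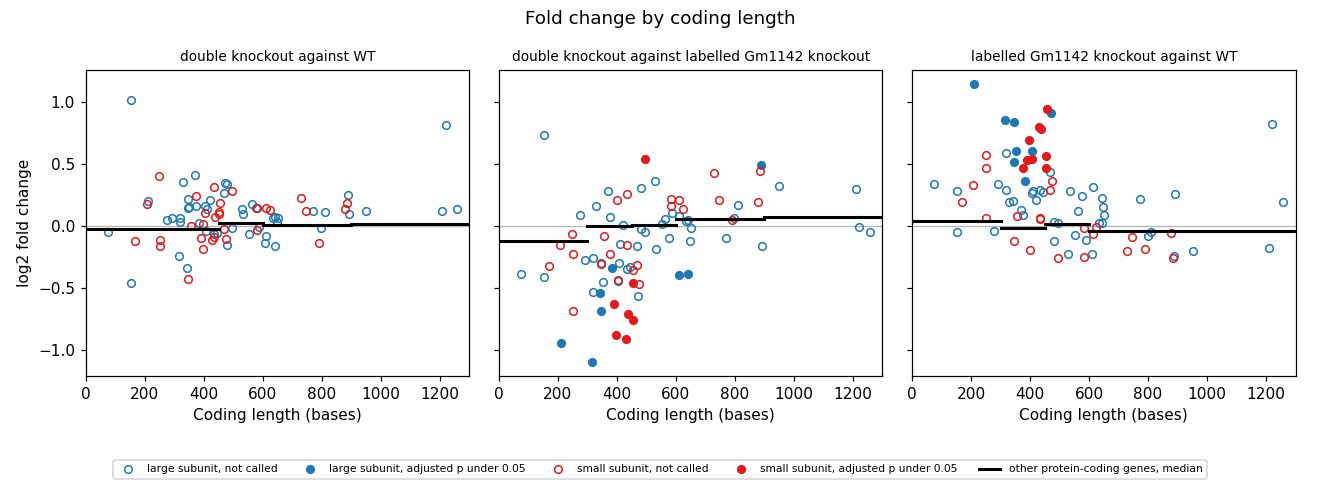
Fold change (log2) of each member against its coding length (bases) in the double knockout against WT, the double knockout against the libraries labelled Gm1142 knockout, and the libraries labelled Gm1142 knockout against WT. Blue is the large and red the small subunit, filled points passed the test, and black lines are medians of other protein-coding genes by length; the 17 called members of the right panel have 210 to 471 coding bases.

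The relation with length varied between libraries of a group. Set against the WT mean, the median member below 453 bases lay at 0.06, -0.11 and 0.23 (log2) in the double knockout, 0.17, 0.55 and 0.21 in the Gm1142-labelled libraries and -0.11, 0.07 and 0.04 in WT. For members at or above 453 bases the values were 0.15, 0.13 and -0.05 in the double knockout, 0.11, -0.03 and 0.02 in the Gm1142-labelled libraries and -0.01, 0.03 and -0.00 in WT. Replicate 2 of the Gm1142-labelled libraries and replicate 3 of the double knockout had the steepest falls with length, with Spearman correlations of -0.61 and -0.59. Replicates 1 and 2 of the double knockout ran the other way, at 0.34 and 0.48. WT libraries also ran both ways, at 0.39, -0.10 and -0.27. Replicates 1 and 3 of the Gm1142-labelled libraries stood at -0.10 and -0.32. Without replicate 2 of the Gm1142-labelled libraries the correlation of the fold change against WT with length was -0.20, and 7 of 39 shorter and 2 of 42 longer members were higher. That library also had the highest mitochondrial share (38.9%) and the lowest scaling factor (0.856). The part of RNA quality in the relation was not tested. With trends on length and GC content over all genes removed from each library, 15 members were higher, all among the 17, and the correlation was -0.41.

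**Figure D5:**
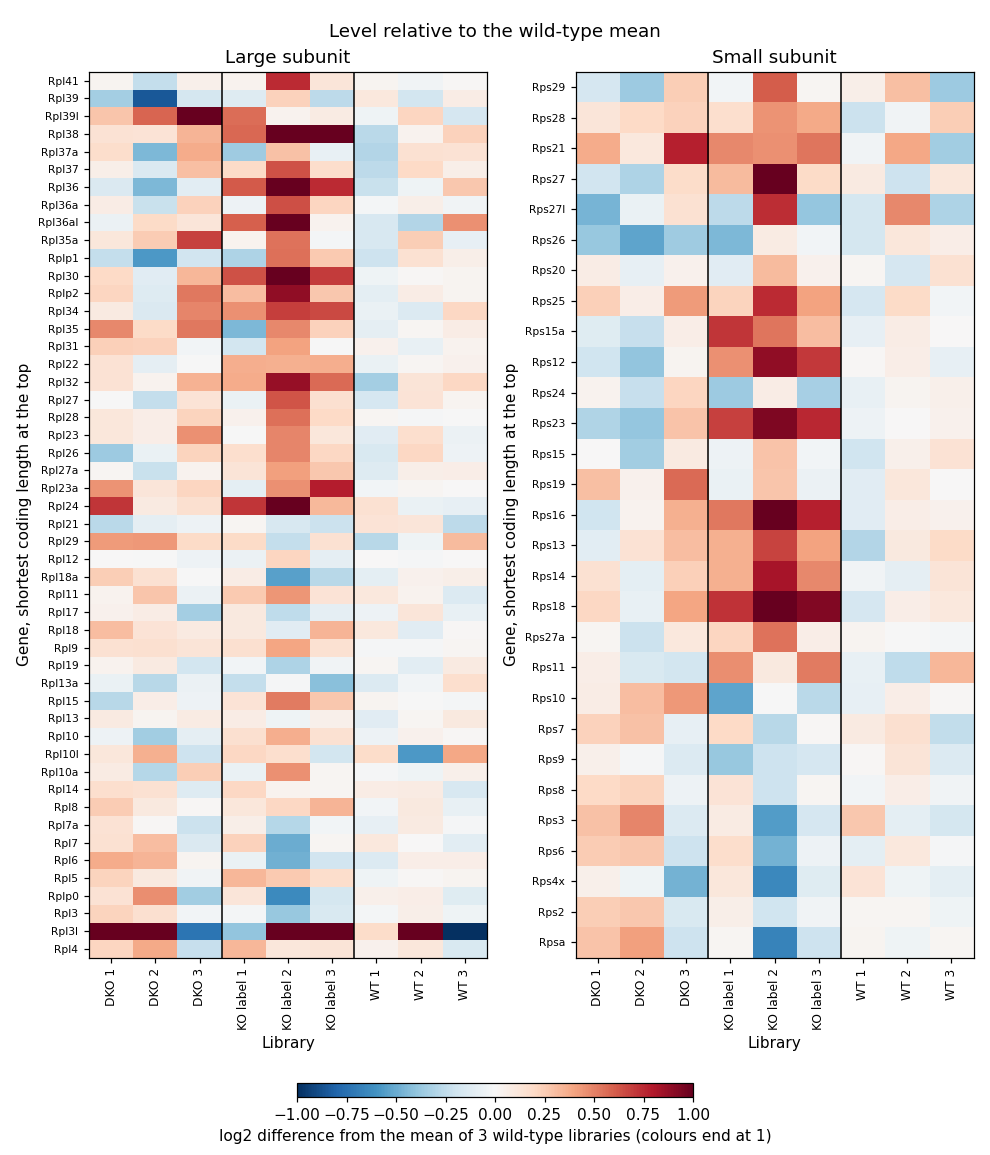
Level of large and small subunit genes in each library, as the log2 difference from the mean of the 3 wild-type libraries, with genes ordered by coding length from the shortest at the top and libraries in the order double knockout, labelled Gm1142 knockout (KO label) and wild type. In replicate 2 of the Gm1142-labelled libraries shorter genes are mostly high (median 0.55) and many of the longest ones low.

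In the double knockout no member passed the test against WT in edgeR, DESeq2 or limma-voom. Of all genes, 0.0464% were higher and 0.0464% lower in edgeR, 0.0927% in all. At an unadjusted p under 0.05 there were 2 members in edgeR (8.95% of all genes), 1 in DESeq2 and 4 in limma-voom. The median log2 fold change was 0.10, both over all members and in each subunit, against 0.02 over all genes, and the members ran from -0.46 (Rpl39) to 1.01 (Rpl39l). The median over the members was 0.060 without replicate 1, 0.067 without replicate 2 and 0.042 without replicate 3 of the double knockout. In 6 members every double knockout library was above every WT library (8.28% of all genes), and in 1, Rps26, every one was below (7.57%). The smallest p belonged to Rps26, a protein of the mRNA exit channel, with 55.1, 49.5 and 55.9 CPM in the double knockout, 52.4, 75.9 and 70.3 CPM in the Gm1142-labelled libraries and 63.4, 77.3 and 74.9 CPM in WT. Its double knockout libraries were all below WT (adjusted p = 0.425 by edgeR, log2 fold change -0.43, SE 0.15). Rps19, the gene most often mutated in human Diamond-Blackfan anaemia, had 99.1, 82.7 and 119 CPM in the double knockout, 76.7, 97.2 and 77.1 CPM in the Gm1142-labelled libraries and 74.1, 86.7 and 80.5 CPM in WT (adjusted p = 0.552 by edgeR, log2 fold change 0.31, SE 0.15), and its groups overlapped. Rpl35a had 72.5, 80.3 and 108 CPM in the double knockout, 68.9, 97.9 and 66.3 CPM in the Gm1142-labelled libraries and 59.9, 79.8 and 63.3 CPM in WT, with overlapping groups (adjusted p = 0.571 by edgeR, log2 fold change 0.36, SE 0.17). Rps18, which was higher in the Gm1142-labelled libraries than in WT, had a log2 fold change of 0.18 here (adjusted p = 0.754 by edgeR's test).

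Between the knockout groups, 2 members were higher and 13 lower in the double knockout than in the Gm1142-labelled libraries by edgeR's test (9.07% and 10.1% of all genes, 19.1% in all). At an unadjusted p under 0.05 there were 28 (32.2% of all genes). In 3 members every double knockout library was above every Gm1142-labelled one (16.3% of all genes), and in 17 every one was below (17.1%). The median log2 fold change was -0.12, against 0.03 over all genes. It was -0.20 without replicate 1 and -0.075 without replicate 2 of the Gm1142-labelled libraries, and -0.022 with length and GC trends removed. The lower ones were 7 genes of the large subunit (Rpl36, Rpl30, Rpl10, Rpl38, Rplp1, Rpl15 and Rpl22) and 6 of the small subunit (Rps12, Rps23, Rps18, Rps16, Rps15a and Rps14). The comparison shares the Gm1142-labelled libraries with the one against WT, so values are given side by side and are not a second observation. Rpl36 had a log2 fold change of -1.10 (adjusted p = 1.20e-04 by edgeR's test) here, beside 0.85 for the Gm1142-labelled libraries against WT and -0.24 for the double knockout against WT. For Rps12 the 3 values in that order were -0.88, 0.69 and -0.19. For Rps23 they were -0.91, 0.80 and -0.11, for Rps18 -0.76, 0.94 and 0.18, and for Rpl30 -0.69, 0.83 and 0.15. Those 5 genes passed in each fit with 1 library removed, and the other 10 did not. For Rps16 the values were -0.71, 0.78 and 0.07, and its call was lost without replicate 1 of the double knockout or replicate 2 of the Gm1142-labelled libraries.

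Rps15a, at 25.3, 23.4 and 28.8 CPM in the double knockout, 45.3, 39.9 and 34.1 CPM in the Gm1142-labelled libraries and 25.8, 29.0 and 27.6 CPM in WT, had its double knockout libraries below all Gm1142-labelled ones (adjusted p = 0.0143 by edgeR, log2 fold change -0.63, SE 0.17). Rpl10 had 433, 351 and 419.7 CPM in the double knockout, 501, 575 and 496 CPM in the Gm1142-labelled libraries and 431, 459.7 and 451 CPM in WT, and its double knockout libraries were below all Gm1142-labelled ones (adjusted p = 0.0201 by edgeR, log2 fold change -0.39, SE 0.11). It was not called against WT in either group, and its call was lost without replicate 2 of either knockout group. The 2 members that were higher in the double knockout were Rpl6 and Rps10. Rpl6, a protein with no bacterial counterpart, had 289, 284 and 228 CPM in the double knockout, 214, 160.1 and 196 CPM in the Gm1142-labelled libraries and 203, 235 and 235 CPM in WT, with every double knockout library above every Gm1142-labelled one (adjusted p = 0.0123 by edgeR, log2 fold change 0.49, SE 0.13). Rps10, another Diamond-Blackfan anaemia gene in humans, had 36.7, 43.1 and 47.1 CPM in the double knockout, 24.1, 34.8 and 28.8 CPM in the Gm1142-labelled libraries and 32.9, 36.5 and 35.1 CPM in WT, with the same separation (adjusted p = 0.0339 by edgeR, log2 fold change 0.54, SE 0.17). Neither passed against WT, where their log2 fold changes in the double knockout were 0.25 and 0.28. The Rps10 call was lost with pseudogene counts added and with the 2 groups fitted alone. It was also lost without replicate 2 or 3 of the double knockout or replicate 1 or 3 of the Gm1142-labelled libraries. Rps10 shared 92.4% of its 50-base transcript windows with other genes. The Rpl6 call was lost without replicate 1 of the double knockout or replicate 2 of the Gm1142-labelled libraries. There were 7 lower members without replicate 2 of the double knockout, 7 without replicate 2 of the Gm1142-labelled libraries and 9 to 16 without any other single library. The count of higher members was 1 without replicate 1 or 2 of the double knockout or replicate 2 or 3 of the Gm1142-labelled libraries, 4 without replicate 3 of the double knockout and 5 without replicate 1 of the Gm1142-labelled libraries. With length and GC trends removed 3 were higher and 9 lower.

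The 5 members with an l after the number are paralogs, read beside their parent genes. Rpl10l, an intronless copy of X-linked Rpl10 that mouse spermatocytes need at meiosis, had 6.89, 8.24 and 5.44 CPM in the double knockout, 7.38, 7.16 and 5.54 CPM in the Gm1142-labelled libraries and 7.27, 4.14 and 8.40 CPM in WT. Rpl39l, the autosomal copy of X-linked Rpl39, had 2.49, 3.16 and 6.79 CPM in the double knockout, 3.11, 2.05 and 2.13 CPM in the Gm1142-labelled libraries and 1.91, 2.37 and 1.72 CPM in WT. Its parent Rpl39 had 15.9, 11.1 and 17.9 CPM in the double knockout, 18.5, 23.8 and 16.8 CPM in the Gm1142-labelled libraries and 21.8, 17.7 and 21.3 CPM in WT. In each group the mean levels of Rpl10l and Rpl39l were below those of their parents. Between these copies, the ratio of parent to copy was smallest for Rpl39l in replicate 3 of the double knockout. In the double knockout all 3 Rpl39l values lay above WT, with a log2 fold change of 1.01 (SE 0.52) that did not pass (edgeR adjusted p = 0.587). The summed germ-cell markers were highest in the same 3 libraries, and their part in this difference was not tested. Rpl36al, a copy of X-linked Rpl36a, had 5.17, 6.20 and 5.89 CPM in the double knockout, 8.35, 11.2 and 5.54 CPM in the Gm1142-labelled libraries and 4.79, 4.34 and 7.54 CPM in WT. Its parent Rpl36a had 59.3, 48.3 and 66.1 CPM in the double knockout, 54.4, 88.2 and 65.4 CPM in the Gm1142-labelled libraries and 55.5, 58.7 and 54.9 CPM in WT. Rpl3l, known as the striated-muscle form of Rpl3, had 2.10, 2.37 and 0.226 CPM in the double knockout, 0.388, 2.81 and 1.92 CPM in the Gm1142-labelled libraries and 0.766, 1.97 and 0 CPM in WT. It was the lowest of all members and its groups overlapped. Rpl3 itself had 366, 349 and 308 CPM in the double knockout, 309, 242 and 282 CPM in the Gm1142-labelled libraries and 310.1, 327 and 304 CPM in WT. Rps27l had 4.02, 5.41 and 6.34 CPM in the double knockout, 4.66, 9.72 and 4.26 CPM in the Gm1142-labelled libraries and 4.98, 8.08 and 4.52 CPM in WT. Its parent Rps27 had 13.0, 11.96 and 17.0 CPM in the double knockout, 18.6, 31.4 and 17.0 CPM in the Gm1142-labelled libraries and 15.9, 12.8 and 16.2 CPM in WT. None of the 5 paralogs passed in any comparison by edgeR's test.

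Ribosomal protein genes have many processed copies, which bears on how reads were assigned. In the GENCODE M21 transcripts, 78 of the 81 members shared at least one 50-base window with another annotated gene and the median member shared 57.4% of its windows. Rps18 shared 86.7%, Rpl30 76.4%, Rps12 90.1% and Rpl10 92.1%, while Rpl3l and Rpl39l shared none. Over the members the fold change of the Gm1142-labelled libraries against WT had a Spearman correlation of 0.10 with that share, and the WT level per kb one of 0.28. The table held 300 named ribosomal protein pseudogenes, 158 with any count, and their counts came to 1.20% to 1.41%, 1.37% to 1.89% and 1.498% to 1.62% of the members' counts in the double knockout, the Gm1142-labelled libraries and WT. Adding the counts of these named pseudogenes to their parents left 17 members higher in the Gm1142-labelled libraries than in WT. Other genes with shared windows were not added: Rps16 shared windows with 89 other genes and had 2 named pseudogenes. Whether all of those genes are copies was not checked. With so few counts added, this cannot show what reads of all copies would do. Reads of a member and of its copies cannot be told apart where they share sequence.

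Genes that build, regulate and use the ribosome were read as lists. Of 99 ribosome biogenesis factors, 26 were higher and 3 lower in the Gm1142-labelled libraries than in WT by edgeR's test, with a median log2 fold change of 0.24. These are 26.3% and 3.03% of the list, against 10.2% and 8.38% of all genes. Utp4, a subunit of the small-subunit processome, had 68.1, 69.9 and 71.8 CPM in the double knockout, 101, 124 and 104 CPM in the Gm1142-labelled libraries and 48.2, 53.02 and 51.5 CPM in WT (adjusted p = 8.10e-06 by edgeR, log2 fold change 1.10, SE 0.13). Rrp15, which acts in maturation of the large subunit, had 26.6, 34.4 and 38.3 CPM in the double knockout, 58.3, 80.8 and 70.7 CPM in the Gm1142-labelled libraries and 29.1, 23.3 and 23.7 CPM in WT (adjusted p = 9.96e-06 by edgeR, log2 fold change 1.46, SE 0.18). Eif6, which keeps the large subunit from joining too early, had 54.3, 46.3 and 48.5 CPM in the double knockout, 84.3, 113 and 80.3 CPM in the Gm1142-labelled libraries and 41.2, 43.4 and 39.2 CPM in WT (adjusted p = 2.22e-05 by edgeR, log2 fold change 1.16, SE 0.15). In these 3 genes every Gm1142-labelled library was above the other 6. None of the 99 passed in the double knockout against WT, where the median was 0.17, 18 had an unadjusted p under 0.05 in edgeR's test (8.95% of all genes), and Utp4 had a log2 fold change of 0.46 (edgeR adjusted p = 0.265). Without replicate 1 of WT, 16 biogenesis factors were higher and 1 lower in the Gm1142-labelled libraries, and without any other single library 19 to 25 were higher and 1 to 4 lower. Between the knockout groups 8 were higher and 21 lower in the double knockout (8.08% and 21.2%, against 9.07% and 10.1% of all genes).

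In the Gm1142-labelled libraries against WT, 14 of 35 translation initiation factors had an unadjusted p under 0.05 by edgeR's test (30.8% of all genes). Of the 35, 8 (22.9%) were higher and none lower (10.2% and 8.38% of all genes). They included Eif4h, a partner of the helicase eIF4A, with 196 ± 14.3 CPM in the double knockout, 275 ± 11.9 CPM in the Gm1142-labelled libraries and 183 ± 8.93 CPM in WT (SD, n = 3 each). Eif2s1, the subunit of eIF2 that is phosphorylated in stress, had 88.5 ± 16.5 CPM in the double knockout, 118 ± 10.97 CPM in the Gm1142-labelled libraries and 71.5 ± 2.95 CPM in WT (SD, n = 3 each), and Eif5 had 283 ± 12.2 CPM in the double knockout, 379.8 ± 21.3 CPM in the Gm1142-labelled libraries and 256 ± 28.4 CPM in WT (SD, n = 3 each). The count was 5 without replicate 1 or without replicate 2 of the Gm1142-labelled libraries, and 3 without replicate 3 of WT. A list of 16 genes kept for elongation and termination also holds genes with other roles. Of these 16, 2 (12.5%) were higher (Eef1e1 and Btf3) and 1 (6.25%), the ribosome-recycling ATPase Abce1, lower. Of 12 genes of RNA polymerase I, which makes the large ribosomal RNAs, 3 (25%) were higher and 1 (8.33%) lower. The polymerase subunit Polr1b had 49.4, 47.9 and 52.8 CPM in the double knockout, 80.0, 73.6 and 99.9 CPM in the Gm1142-labelled libraries and 45.8, 47.5 and 48.7 CPM in WT (adjusted p = 3.59e-04 by edgeR, log2 fold change 0.84, SE 0.14).

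Of 18 mTOR and 5′ TOP regulators none was higher and 2 (11.1%) were lower in the Gm1142-labelled libraries than in WT (4 had an unadjusted p under 0.05 in edgeR's test): Tia1, an RNA-binding protein of stress granules (adjusted p = 2.23e-05 by edgeR, log2 fold change -0.83, SE 0.11), and Tsc2, an inhibitor of mTOR (adjusted p = 0.00719 by edgeR, log2 fold change -0.54, SE 0.13). In this comparison 10.2% of all genes were higher and 8.38% lower, and 30.8% had an unadjusted p under 0.05 in edgeR's test. Of 12 p53 and ribosomal stress genes 1 (8.33%) was higher and 4 (33.3%) lower, among them the p53 inhibitor Mdm4 (adjusted p = 3.92e-05 by edgeR, log2 fold change -0.85, SE 0.12), the p53 target Cdkn1a (adjusted p = 0.0232 by edgeR, log2 fold change -1.56, SE 0.47) and Trp53, the gene of p53 itself (adjusted p = 0.0308 by edgeR, log2 fold change -0.40, SE 0.13). Of 13 ribosome quality control genes 4 (30.8%) were higher (Nemf and Edf1 with the smallest p) and 1 (7.69%) lower (Ankzf1). Of 15 transcription factors linked to ribosomal protein promoters 3 (20%) were higher (Max and Tbpl1 with the smallest p) and 1 (6.67%) lower (Sp1). Of 77 mitochondrial ribosomal protein genes, which encode the separate ribosome of the mitochondrion, 9 were higher and 5 lower, with a median log2 fold change of 0.16. These are 11.7% and 6.49% of the list, near the shares of all genes. In the double knockout no gene of the lists from initiation factors to mitochondrial ribosomal proteins passed against WT, and each list had 0 to 8 genes at an unadjusted p under 0.05 in edgeR's test (8.95% of all genes). Of the structural genes outside the name pattern none passed against WT in either group (1 of 4, Fau, had an unadjusted p under 0.05 for the Gm1142-labelled libraries). Fau, which encodes Rps30 fused to a ubiquitin-like protein, had 22.4, 20.5 and 26.5 CPM in the double knockout, 26.4, 45.5 and 41.1 CPM in the Gm1142-labelled libraries and 29.9, 26.8 and 26.9 CPM in WT, and was lower in the double knockout than in the Gm1142-labelled libraries (adjusted p = 0.0177 by edgeR, log2 fold change -0.71, SE 0.20). The log2 fold changes of the Gm1142-labelled libraries against WT were 0.43 in Fau, -0.04 in Rps3a1 and 0.02 in Rack1.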

How the data were processed

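RNA was sequenced from 9 testis samples, 3 per group. The authors deposited a table of read counts per gene. Per the submitters' processing notes cutadapt, Bowtie2, STAR and featureCounts were used with the mm39 build; versions, strand setting and the treatment of reads with several matches are not given in the sources used here. Symbols, gene types and lengths came from GENCODE M21 by gene ID. Counts were filtered with filterByExpr (minimum count 10, total 15), which left 17251 genes, scaled by TMM and tested with edgeR's quasi-likelihood test (edgeR 4.0.16, R 4.3.3) on all 9 libraries, with Benjamini-Hochberg adjustment over those genes at a threshold of 0.05. DESeq2 1.42.0 and limma-voom (limma 3.58.1) were alternatives, with other scalings and filters, removal of length and GC trends, thinning, added pseudogene counts and libraries left out. The test was tried on simulated data. Members and lists were chosen with earlier results of these data known. Named genes are the called members by p, the smallest p against WT where none was called, paralogs with their parents, stalk genes, Rpsa and the list genes with the smallest p. Some named members are not reported here and not drawn with a label. Sequences are from RefSeq (GRCm38.p6). The standard errors were widest for the low-count paralogs Rpl3l and Rpl39l.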

Additional observations from a re-analysis of the deposited data

How the results depend on the processing

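For the Gm1142-labelled libraries against WT, leaving out 1 library gave 7 to 16 higher members and a median log2 fold change of 0.11 to 0.27. In an alternative chosen after seeing the data, without replicate 2 of both knockout groups, there were 11 higher members, 1 lower (Rps24) and a median of 0.10. The other alternatives gave 13 to 17 higher members by edgeR, DESeq2 or limma-voom. For the double knockout against the Gm1142-labelled libraries, leaving out 1 library gave 1 to 5 higher and 7 to 16 lower members. Higher members numbered 4 with no filter on low counts, 1 with the 2 groups fitted alone and 1 with pseudogene counts added. Lower members numbered 8 with the 2 groups alone, and 5 without replicate 2 of both knockout groups. With length and GC trends removed the median was -0.022, and without replicate 2 of both knockout groups -0.040. The causes of these shifts were not tested. For the double knockout against WT no member passed under any alternative run.

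Between the Gm1142-labelled libraries and WT, deviations of same-numbered replicates had correlations over genes of 0.08, 0.08 and 0.04. Different-numbered replicates ran from -0.08 to -0.002 there. Same-numbered values were 0.05, -0.01 and 0.10 between the double knockout and WT, and 0.04, -0.27 and 0.00 between the knockout groups. Different-numbered ones ran from -0.11 to 0.08 and from -0.19 to 0.16 in these comparisons. With the replicate number as a block, 13 members were higher in the Gm1142-labelled libraries than in WT, and 2 were higher and 11 lower in the double knockout than in the Gm1142-labelled libraries. With the block and the trends removed together, 8 were lower. Depth limits the paralogs most, since Rpl3l, Rpl39l, Rpl10l and Rps27l had under 10 CPM in every library.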

Other observations

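Pseudogene counts had a pattern of their own. Rps19-ps1 and Rps19-ps2 had identical counts in 9 of 9 libraries, from 68 to 196. Of the pseudogene values of at least 10 counts, 77.0% of 126 were even, against 49.2% of 722 for the members and 52.9% of 148612 over all genes. Rps4l, a name match that is not protein coding, had an even count in 9 of 9 libraries (60 to 256).

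The median biological coefficient of variation was 13.4% over the members. It was 14.3% over the 8745 genes between the 10th and 90th percentile of the members' levels. Those genes lie in the members' range of levels but were not matched to them in level, so the comparison is rough.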
